A study of Homo sapiens with 30 samples.

Results

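The proteasome subunit genes were followed in chromatin of OCI-Ly1 cells treated with JIB-04. Members were the genes of the RefSeq table for GRCh38.p14 whose whole symbol is PSMA, PSMB, PSMC or PSMD followed by digits alone, which gave 39 of 59778 genes. Peaks no more than 1000 bp from a gene end, start or far end, were assigned to that gene. This gave 39 of 21268 H3K4me3 peaks and 49 of 63580 H3K27ac peaks, at the same 36 genes in each mark, and PSMA1, PSMA6 and PSMB11 had no such peak. After the filter on low counts, 39 H3K4me3 and 47 H3K27ac member peaks were tested, and 1 peak each of PSMA7 and PSMD5 in H3K27ac was not. For each gene the tested peak with the highest mean level over the 6 libraries is called its main peak.

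OCI-Ly1 is an established human diffuse large B-cell lymphoma line of germinal centre type, and JIB-04 is a small-molecule inhibitor of Jumonji histone demethylases. The cells received 150 nM JIB-04, 500 nM JIB-04 or the DMSO vehicle at 0.01%, with no genetic change, and the length of treatment is not given in the sources used here. Chromatin immunoprecipitation and sequencing of H3K4me3 and of H3K27ac gave 2 libraries per mark and group, which is 12 of the 30 libraries of the series. The other 18, for H3K9me2, H3K9me3 and input, were not analysed here. No label says that the 2 libraries of a group came from separate cultures, so the p-values measure the spread between these libraries, which may be technical.

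The proteasome degrades proteins tagged with ubiquitin. Its 20S core is a barrel of outer alpha rings and inner beta rings, the beta rings hold the cutting sites, and the 19S cap recognises, unfolds and feeds in the substrate with a ring of ATPases and a set of non-ATPase subunits. Subunit genes are expressed in nearly all cells, and the transcription factor NFE2L1 raises them together through antioxidant response elements in their promoters when proteasome activity falls. B cells also express immunoproteasome subunits, which replace the standard catalytic ones and change the peptides offered for antigen presentation. H3K4me3 marks the starts of active genes, and H3K27ac marks active promoters and enhancers.

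Promoter sequence is shown first for 5 genes whose peaks are described below. Each run holds the 250 bases before the gene start, read 5′ to 3′ along the gene's own strand, from RefSeq on GRCh38.p14. PSMB3 (chr17:38752491-38752740, plus strand), PSMD3 (chr17:39980557-39980806, plus strand) and PSMD12 (chr17:67366578-67366827, minus strand) carry the antioxidant response element core, TGACNNNGC, in capitals.
PSMB3: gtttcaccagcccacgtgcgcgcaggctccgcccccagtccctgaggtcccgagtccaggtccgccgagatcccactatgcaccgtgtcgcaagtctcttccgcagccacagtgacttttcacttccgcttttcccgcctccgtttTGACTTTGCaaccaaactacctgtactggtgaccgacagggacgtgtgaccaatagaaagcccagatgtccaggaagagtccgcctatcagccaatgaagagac
PSMD3: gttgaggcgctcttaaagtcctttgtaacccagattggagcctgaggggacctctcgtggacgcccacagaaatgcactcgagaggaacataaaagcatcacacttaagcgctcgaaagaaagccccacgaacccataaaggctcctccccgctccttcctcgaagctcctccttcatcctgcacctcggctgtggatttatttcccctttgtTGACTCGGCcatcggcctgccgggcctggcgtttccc
PSMD12: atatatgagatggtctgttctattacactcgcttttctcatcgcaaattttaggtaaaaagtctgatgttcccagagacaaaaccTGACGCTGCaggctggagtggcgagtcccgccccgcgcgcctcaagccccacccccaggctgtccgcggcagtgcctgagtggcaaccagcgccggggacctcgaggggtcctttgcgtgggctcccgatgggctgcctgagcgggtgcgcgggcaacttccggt
PSMD14 (chr2:161308175-161308424, plus strand) had a lower H3K4me3 peak at 500 nM, and PSMD7 (chr16:74296564-74296813, plus strand) had the lowest H3K27ac p-value of the main peaks. In these windows the capitals mark the NF-Y box, CCAAT on either strand. In PSMD14 the matches on the plus and minus strands overlap.
PSMD14: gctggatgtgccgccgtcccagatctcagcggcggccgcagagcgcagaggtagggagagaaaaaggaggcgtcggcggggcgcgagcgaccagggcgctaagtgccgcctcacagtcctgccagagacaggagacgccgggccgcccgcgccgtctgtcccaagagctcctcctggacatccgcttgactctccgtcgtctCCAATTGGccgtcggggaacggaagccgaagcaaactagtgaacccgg
PSMD7: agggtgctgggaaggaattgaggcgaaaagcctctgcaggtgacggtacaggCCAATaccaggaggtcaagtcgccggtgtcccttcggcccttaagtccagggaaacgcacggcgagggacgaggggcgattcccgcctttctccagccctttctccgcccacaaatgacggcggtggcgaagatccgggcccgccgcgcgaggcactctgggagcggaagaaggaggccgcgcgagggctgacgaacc

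Of the 39 genes, 34 had a promoter entry, and PSMA7, PSMB1, PSMB6, PSMB7 and PSMD4 are named only. Motifs were searched on both strands of each 250 base window. The antioxidant response element core was present in 8 of 41 member windows (19.5%) and in 10.9% of 35116 windows of all genes. It occurred at PSMA4, PSMB3, PSMB9, PSMC5, PSMD3, PSMD5, PSMD9 and PSMD12. The NF-Y box CCAAT was present in 41.5% of member windows and 32.0% of all windows. CCGGAAG, an ETS site, was found in 19.5% against 8.52%, and GCGCA followed by any base and then GCGC, the nuclear respiratory factor 1 site, in 12.2% against 5.07%. A match is a run of letters and not a bound site. Several member windows belong to the same gene, so the windows are not independent.

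The counts in peaks came to 9686420 to 12327122 per H3K4me3 library and 4360660 to 5410292 per H3K27ac library. The median peak held 263 to 328 counts in the H3K4me3 libraries and 21 to 24 in the H3K27ac libraries, and the acetylation values are less precise. The 150 nM H3K4me3 libraries differed by less than counting noise, with a chi-square per degree of freedom of 0.923. The first DMSO and the first 150 nM library did as well, at 0.952, although their labels differ, so all were kept as separate samples. In H3K27ac, DMSO replicate 2 and 150 nM replicate 2 stood apart on 5 contigs, with 71.5 and 45.9 counts-per-million (CPM) there against 322 to 446 in the other 4 libraries. The B-cell genes MS4A1, CD79A, CD79B, PAX5 and BCL6 had peaks of both marks, while the myeloid genes CSF1R, MPO and LYZ had none in either. Peaks at CD8A and EPCAM were present in both marks. CD3D, CD3E, CD3G, CD14 and KRT8 had a peak in at least 1 mark, and CDH1 had none.

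In the DMSO vehicle, the 36 subunit genes with a member peak carried both marks. Levels are CPM, relative to the counts in tested peaks and scaled by the trimmed mean of M-values, divided by peak width. In DMSO the main H3K4me3 peaks ran from 19.2 CPM per kb at PSMA8, the testis-enriched alpha subunit, to 57.0 at PSMC5, a 19S ATPase. Their median of 42.0 stood beside 30.1 over the highest peak of any gene, chosen in the same way (12230 peaks). For H3K27ac the range went from 6.51 CPM per kb at PSMD10, the assembly chaperone gankyrin, to 25.2 at PSMB8, a catalytic immunoproteasome subunit, with a median of 18.4 beside 15.3 over the highest peak of any gene (11872 peaks). By class, the median H3K27ac level in DMSO was 15.6 CPM per kb for the 20S alpha genes, 16.2 for the constitutive beta genes, 22.3 for PSMA8, PSMB8, PSMB9 and PSMB10 as a group, 17.8 for the 19S ATPases, 18.5 for the non-ATPases and 20.4 for the assembly chaperones. The H3K4me3 order was different, with the 19S non-ATPases at 45.5 CPM per kb and the assembly chaperones at 35.4. Across the 36 genes the DMSO levels of the marks were related with a Spearman rho of 0.50, which describes peaks of the same libraries and is no test. A peak could belong to neighbours too: 16 of the 39 H3K4me3 and 18 of the 49 H3K27ac member peaks also lay near an end of another gene, such as TBP at PSMB1, MRPL32 at PSMA2 and TAP1 at PSMB8 and PSMB9.

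At 500 nM the H3K4me3 peaks at subunit gene starts changed little. Of 39 member peaks 7 passed an adjusted p of 0.05 against DMSO (17.9%), while 39.4% of all 20402 tested peaks and 39.9% of peaks near an end of any gene did. Of the 7, 1 was higher and 6 were lower, and over all peaks 20.7% were higher and 18.7% lower. Among the 36 main peaks 4 were called, all of them lower: PSMB7, PSMD4, PSMD6 and PSMD14. The split depends on the scaling. With total counts in peaks 3 member peaks were higher and 6 lower, beside 4767 higher and 2791 lower over all peaks (37.0% called). With offsets fitted on abundance 5 were higher and 5 lower, beside 3612 higher and 3306 lower over all peaks (33.9%).

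Main peaks were abundant, and the spread of changes was narrower at abundant peaks: over peaks near an end of any gene, percentiles 5 and 95 of the log2 fold change were -0.66 and 2.54 in the lowest of 20 abundance groups and -0.26 and 0.07 in the highest. With all tested peaks divided into 5 groups of equal size by abundance, 21 main peaks lay in group 5, the most abundant, 14 in group 4 and 1 in group 3. In group 5, 1 of 21 was called, where 38.3% of peaks near an end of any gene were, and in group 4 it was 3 of 14, beside 30.7%. The median absolute log2 fold change was 0.05 over main peaks and 0.11 over peaks near an end of any gene, of which those in groups 4 and 5 had 0.08 and 0.07. All 36 of the 95% intervals lay between -0.30 and 0.25. The signed median was -0.04, with 29 of 36 below 0, beside -0.02 near an end of any gene. In abundance groups 4 and 5, which hold 35 of the 36, the peaks near an end of any gene had medians of -0.04 and -0.06, with 32.5% and 23.1% above 0. That sign is tied to the scaling: the median was -0.00 with 20 of 36 below 0 under total counts, and 0.02 with 15 below 0 under offsets fitted on abundance. Both 500 nM libraries lay below both DMSO libraries at 18 of 36 main peaks, beside 38.2% of peaks near an end of any gene, 44.9% in group 4 and 54.9% in group 5.

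**Figure D1:**
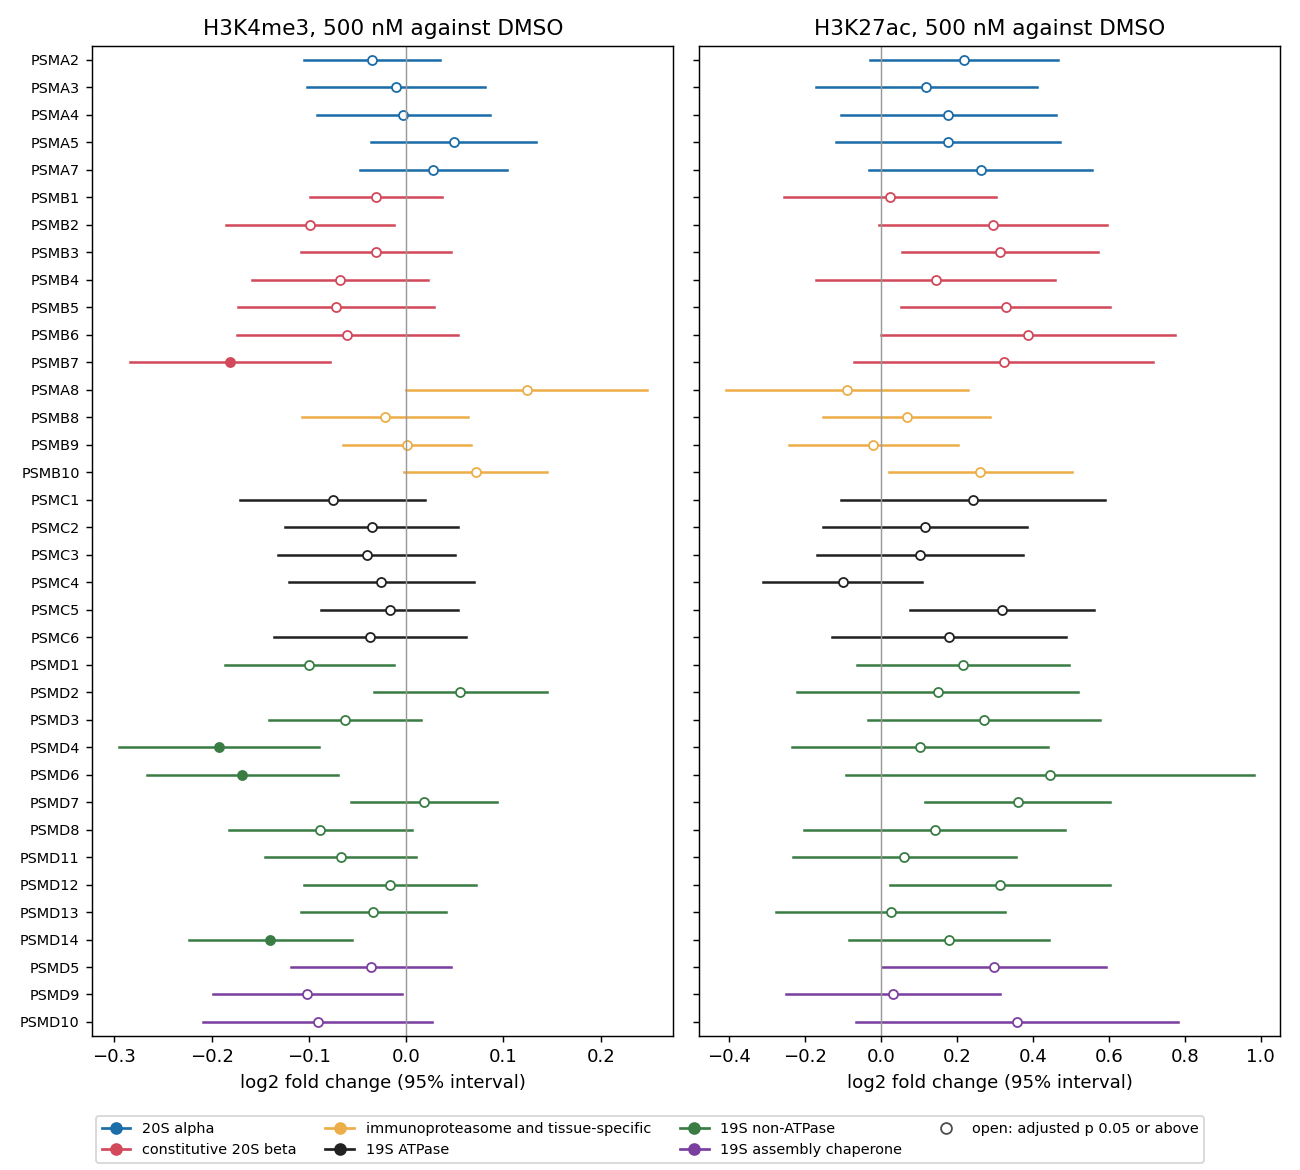
Log2 fold change of the main peak of each of 36 proteasome subunit genes at 500 nM against DMSO, with 95% intervals, for H3K4me3 (left) and H3K27ac (right, wider axis), coloured by subunit class. Filled points have an adjusted p under 0.05: PSMB7, PSMD4, PSMD6 and PSMD14 in H3K4me3 and none in H3K27ac, where 33 of 36 points lie above 0.

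**Figure D2:**
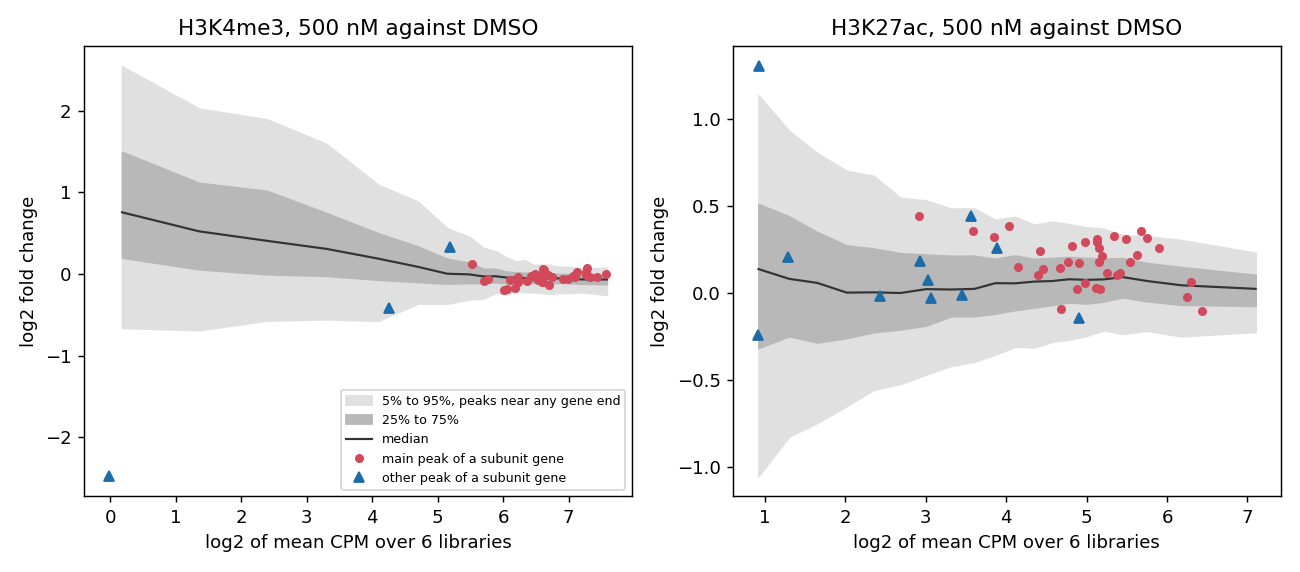
Log2 fold change at 500 nM against DMSO (vertical axis) by the log2 of mean CPM over 6 libraries (horizontal axis). Grey bands give the quantiles over peaks near an end of any gene, red points the 36 main peaks and blue triangles the other member peaks, of which the lowest in H3K4me3 is a PSMD9 peak at -2.47.

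The 20S alpha genes form the outer rings that gate the entry to the core. None of their 5 main H3K4me3 peaks was called, although PSMA5 and PSMA7 were called higher with offsets fitted on abundance. PSMA5 had the highest value of the class at chr1:109424861-109427395, with 99.6 and 95.6 CPM in DMSO, 97.5 and 99.7 with 150 nM and 103 and 99.5 with 500 nM. These groups overlap, and the log2 fold change was 0.05 (SE 0.04, adjusted p = 0.39). PSMA2, which shares its peak with MRPL32 (chr7:42930592-42933703), had 163 and 157 CPM in DMSO, 165 and 169 with 150 nM and 156 and 157 with 500 nM. The 500 nM values lay just under the DMSO values at -0.04 (SE 0.03, adjusted p = 0.45). Against 150 nM the same peak was called, at -0.09 (adjusted p = 0.03).

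Constitutive beta genes encode the inner rings. All 7 main peaks had a log2 fold change below 0, or 5 of 7 with total counts in peaks and with offsets fitted on abundance, and 1 passed the test. PSMB7, the trypsin-like catalytic subunit, fell at chr9:124414318-124415898: it read 70.1 and 69.3 CPM in DMSO, 69.7 and 69.8 with 150 nM and 63.4 and 59.2 with 500 nM. Its group means were 69.7 ± 0.632 in DMSO and 61.3 ± 2.97 at 500 nM (SD, n = 2 each), a log2 fold change of -0.18 (SE 0.05, adjusted p = 0.0036). The DMSO and 150 nM libraries sat within 1 CPM of each other, and both 500 nM libraries were below them. PSMB5, the chymotrypsin-like subunit and the main target of proteasome inhibitor drugs, had 68.8 and 70.4 CPM in DMSO, 71.8 and 70.4 with 150 nM and 64.6 and 67.9 with 500 nM at chr14:23033730-23035531. Its change of -0.07 did not pass the test (SE 0.05, adjusted p = 0.28). At PSMB3, a structural beta subunit, the 500 nM libraries with 131 and 134 CPM overlapped the DMSO libraries with 133 and 138 (chr17:38750850-38753754, -0.03, adjusted p = 0.55).

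No main H3K4me3 peak was called among the immunoproteasome genes PSMB8, PSMB9 and PSMB10 and the tissue-specific PSMA8. PSMA8 had the highest value of all main peaks at chr18:26133083-26135437, with 45.1 and 45.3 CPM in DMSO, 41.5 and 47.2 with 150 nM and 49.7 and 48.6 with 500 nM. Both 500 nM libraries lay above the other 4, and the log2 fold change of 0.12 did not pass against DMSO (SE 0.06, adjusted p = 0.11), although it was called with total counts in peaks, at 0.16. PSMB10, another catalytic immunoproteasome subunit, had 148 and 158 CPM in DMSO, 153 and 159 with 150 nM and 157 and 163 with 500 nM (chr16:67934800-67937501). Its change of 0.07 was not called (SE 0.04, adjusted p = 0.12), and it was called as higher with total counts in peaks, with offsets fitted on abundance, with a mean count of at least 50 and without DMSO replicate 2, at 0.09 to 0.14. PSMB8 and PSMB9 lie on either side of TAP1, a peptide transporter gene of the same pathway. PSMB8 had 96.0 and 96.5 CPM in DMSO, 96.1 and 98.4 with 150 nM and 95.1 and 94.5 with 500 nM (chr6:32842982-32845916, log2 fold change -0.02, 95% interval -0.11 to 0.06). PSMB9 had 187 and 193 CPM in DMSO, 195 and 189.8 with 150 nM and 187 and 194 with 500 nM (chr6:32852174-32855531, 0.00, interval -0.07 to 0.07). The values of these peaks in the 500 nM libraries were within 3 CPM of the nearest DMSO library.

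The 6 ATPases, PSMC1 to PSMC6, make the ring that unfolds substrates. All had a log2 fold change below 0, or 4 with total counts in peaks and 1 with offsets fitted on abundance, and none was called. PSMC1 had the lowest value, with 77.1 and 76.9 CPM in DMSO, 74.1 and 73.7 with 150 nM and 73.3 and 72.8 with 500 nM (chr14:90255904-90257660, -0.08, SE 0.05, adjusted p = 0.23). Both doses read below both DMSO libraries there. PSMC5 had 154 and 155 CPM in DMSO, 155 and 158 with 150 nM and 151 and 155 with 500 nM (chr17:63826107-63828821, -0.02, adjusted p = 0.74), with groups that overlap.

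The 19S non-ATPase subunits held 3 of the 4 called main peaks. PSMD4, a ubiquitin receptor, fell at chr1:151254239-151256197: it read 67.9 and 69.3 CPM in DMSO, 65.6 and 67.2 with 150 nM and 61.0 and 58.7 with 500 nM. The means were 68.6 ± 0.985 in DMSO and 59.8 ± 1.58 at 500 nM (SD, n = 2 each), a log2 fold change of -0.19 (SE 0.05, adjusted p = 0.002). PSMD6, a structural lid subunit, fell from 75.8 and 74.0 CPM in DMSO to 65.6 and 67.9 at 500 nM, with 75.1 and 75.6 at 150 nM (chr3:64022148-64024006, -0.17, SE 0.05, adjusted p = 0.0045). PSMD14, the deubiquitinase that removes ubiquitin chains before degradation and whose promoter is printed above, had 107 and 106 CPM in DMSO, 112 and 108 with 150 nM and 97.4 and 95.9 with 500 nM (chr2:161307441-161310372). Its log2 fold change was -0.14 (SE 0.04, adjusted p = 0.0058), and it lost the call with offsets fitted on abundance, at -0.08. At all 3 genes the 500 nM libraries were the lowest of the 6. PSMD2, a large scaffold subunit at the base of the cap, had the highest value of the class, with 92.1 and 98.2 CPM in DMSO, 94.6 and 100.1 with 150 nM and 96.5 and 101 with 500 nM (chr3:184298403-184300494, 0.06, adjusted p = 0.33). Leaving out DMSO replicate 1 brought PSMD2 to 0.00, and it was called higher with offsets fitted on abundance, at 0.11. DESeq2 called none of the 4 main peaks, with adjusted p-values of 0.13 to 0.18 from its Wald test, and 17.1% of all peaks. PSMB7 lost its call without 500 nM replicate 2, and PSMD6 without DMSO replicate 1 and without 500 nM replicate 1.

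PSMD5, PSMD9 and PSMD10 encode chaperones that help assemble the 19S base. Their main H3K4me3 peaks were not called. At PSMD5 the libraries read 108 and 107 CPM in DMSO, 109.7 and 109 with 150 nM and 107 and 102 with 500 nM (chr9:120841754-120844200, -0.04, adjusted p = 0.52). The PSMD9 start peak had 79.5 and 74.6 CPM in DMSO, 73.7 and 76.3 with 150 nM and 72.1 and 71.8 with 500 nM (chr12:121887956-121890129, -0.10, adjusted p = 0.09). It was called without DMSO replicate 2, at -0.15.

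The other 3 called H3K4me3 peaks lay at the far ends of PSMA5 and PSMD9, and were chosen for description after their values were seen. At the far end of PSMA5, next to SORT1, a 1603 bp peak rose: it had 32.2 and 36.0 CPM in DMSO, 32.4 and 33.3 with 150 nM and 42.3 and 43.1 with 500 nM (chr1:109396991-109398593). The log2 fold change was 0.33 (SE 0.07, adjusted p = 7.6e-05), and the start peak of the same gene was not called. At the far end of PSMD9 a 1288 bp peak next to CFAP251 fell from 20.5 and 20.9 CPM in DMSO and 21.6 and 21.2 at 150 nM to 15.8 and 15.2 at 500 nM (chr12:121917822-121919109, -0.41, SE 0.10, adjusted p = 0.00083). A narrower peak beside it, 376 bp wide, held 27 and 9 counts in DMSO, 12 and 13 with 150 nM and 3 and 3 with 500 nM (chr12:121916930-121917305, -2.47, SE 0.56, adjusted p = 0.0003). It was not called without DMSO replicate 1, at -1.63. With peaks that cover a gene end counted alone (0 bp), the far-end peak of PSMA5, the 376 bp peak of PSMD9 and the PSMD6 peak drop out, and 4 of 36 were called. Whether the far-end peaks belong to the subunit gene or to the neighbour was not tested.

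**Figure D3:**
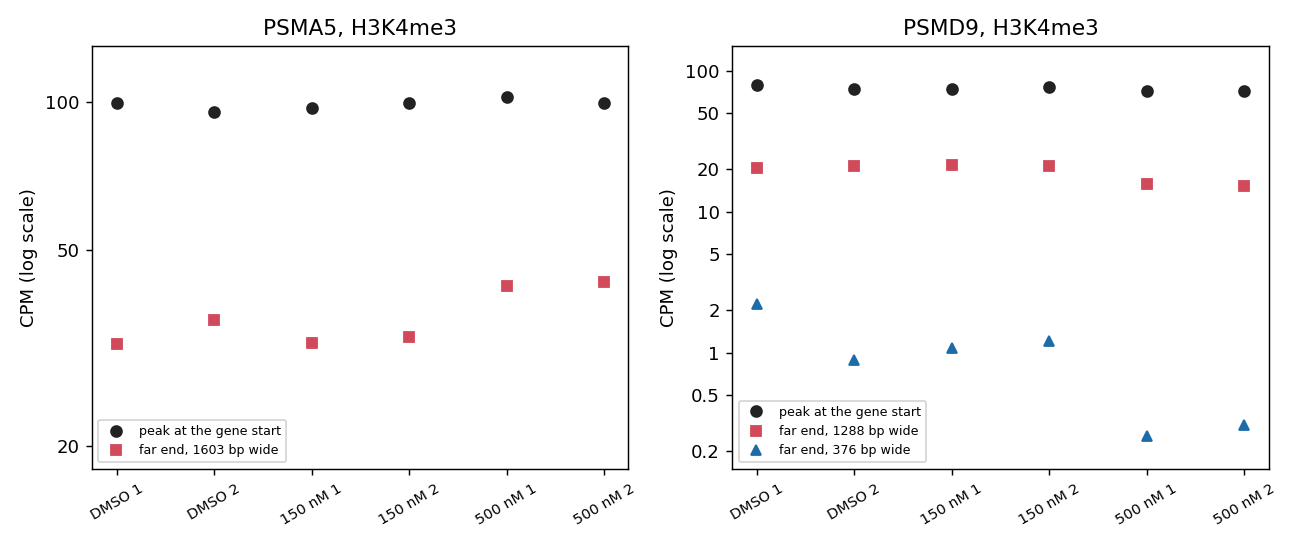
H3K4me3 CPM on a log scale in each of 6 libraries at the start peak and the far-end peaks of PSMA5 (left) and PSMD9 (right). The start peaks stay between 95.6 and 103 CPM and between 71.8 and 79.5 CPM, while the 500 nM libraries are the highest at the far end of PSMA5 and the lowest at both far-end peaks of PSMD9.

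At 150 nM no member peak differed from DMSO in H3K4me3. The quasi-likelihood test of edgeR called 0 of 39 members and 0% of all peaks (0 of 20402), and DESeq2 also called 0. At an unadjusted p under 0.05 there was 1 member of 39, beside 4.66% of all peaks: PSMB2, a structural beta subunit, with 101 and 102 CPM in DMSO, 96.5 and 93.6 with 150 nM and 98.0 and 91.2 with 500 nM. The median over main peaks was 0.00 with 19 of 36 above 0. In this comparison all intervals of the main peaks lay between -0.18 and 0.16.

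Against 150 nM, the 500 nM libraries gave 10 called members of 39 in H3K4me3, beside 39.2% of all peaks. This comparison and the one with DMSO share the 500 nM libraries. Of the 10, 2 were higher, the far-end peak of PSMA5 and PSMA8, and 8 were lower, beside 20.5% higher and 18.6% lower over all peaks. The lower ones were PSMA2, PSMB7, PSMC2, PSMD4, PSMD6, PSMD14 and both far-end peaks of PSMD9. PSMD14 had the lowest adjusted p of the main peaks, at 0.00021 for a log2 fold change of -0.19. With total counts in peaks the split was 3 higher and 5 lower, beside 4695 higher and 2921 lower over all peaks (37.3% called). It was the same with offsets fitted on abundance, beside 3562 higher and 3440 lower over all peaks (34.3%).

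In H3K27ac no member peak passed the test in any comparison. The quasi-likelihood test called 0 of 47 at 500 nM against DMSO, beside 0.923% of 54037 peaks, 0 at 150 nM against DMSO, beside 0.00185%, and 0 at 500 nM against 150 nM, beside 1.27%. At an unadjusted p under 0.05 there were 10, 2 and 2 members of 47 (21.3%, 4.26% and 4.26%), beside 11.5%, 3.94% and 10.2% of all peaks. In the most abundant of 5 groups of peaks near an end of any gene the shares were 16.6%, 3.77% and 9.60%. DESeq2 called 0 members in each comparison. In simulated counts this test found 0% of changes of 0.3 and 80% of changes of 1 on the log2 scale at H3K27ac peaks above the median abundance. That setting differs from the members: 28 of 36 main peaks lay in the most abundant of 5 groups. The simulation also gave 81 calls, and the data 499, so the share found at main peaks was not measured. Their 95% intervals at 500 nM against DMSO had a median half-width of 0.29, so a change of the size seen here can be missed with 2 libraries a group. The values leaned upwards at 500 nM: 33 of 36 main peaks lay above 0 against DMSO with a median log2 fold change of 0.18, beside 0.06 over peaks near an end of any gene and 0.07 in their most abundant group of the 5. Both 500 nM libraries exceeded both DMSO libraries at 20 of 36 main peaks, beside 30.3% of peaks near an end of any gene and 39.2% of those in the most abundant group. The opposite order was found at 1 main peak, PSMC4.

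Each library showed the same lean. Relative to the mean of the DMSO libraries, on the log2(CPM + 1) scale, the median main peak stood at 0.19 and 0.20 in the 500 nM libraries and at 0.06 and 0.13 in the 150 nM libraries. Over peaks near an end of any gene the medians were 0.04 and 0.07 at 500 nM, and -0.03 and 0.09 in the 150 nM pair. The summed CPM of the 36 main peaks was 1228 and 1255 in DMSO, 1286 and 1361 with 150 nM and 1374 and 1411 with 500 nM. At 150 nM against DMSO the fitted median was 0.10, with 26 of 36 main peaks above 0. Both doses are compared with the same DMSO libraries. The 500 nM median lay between 0.15 and 0.24 over all 15 alternatives, with 29 to 33 main peaks above 0, and 29 without 500 nM replicate 2. The median near an end of any gene also moved, to 0.03 without DMSO replicate 1 and 0.10 without DMSO replicate 2, where the main peaks had 0.15 and 0.20. With the split of the libraries on 5 contigs as a term the medians were 0.24 over main peaks and 0.11 near an end of any gene.

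**Figure D4:**
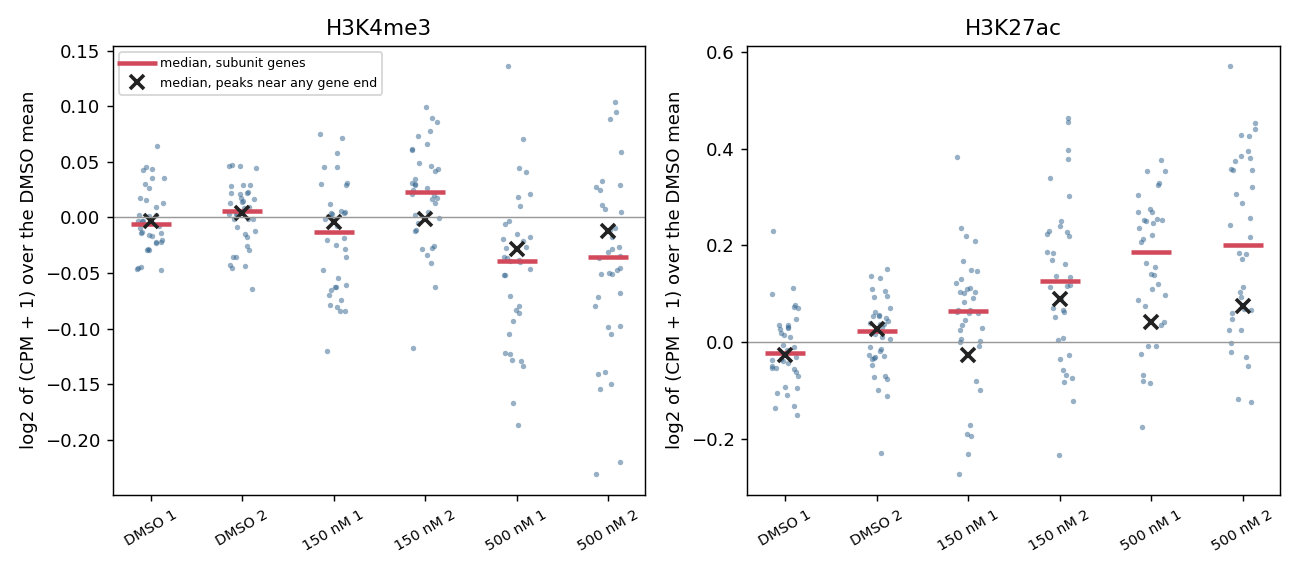
Each of 36 main peaks in each library as the log2 of CPM + 1 over the mean of the DMSO libraries, for H3K4me3 (left) and H3K27ac (right), with the median over the subunit genes (red bar) and over peaks near an end of any gene (black cross). In H3K27ac the red bars stand at 0.19 and 0.20 in the 500 nM libraries, above the crosses at 0.04 and 0.07.

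PSMD7, PSMB6 and PSMD6 had the highest H3K27ac values among main peaks. PSMD7, a structural partner of PSMD14 in the lid, had 44.6 and 47.1 CPM in DMSO, 47.8 and 50.5 with 150 nM and 57.8 and 60.0 with 500 nM (chr16:74295537-74297785). The groups do not overlap, with means of 45.9 ± 1.79 and 58.9 ± 1.56 (SD, n = 2 each) and a log2 fold change of 0.36 (SE 0.12, adjusted p = 0.17). PSMD7 and PSMC5 were called with the 4 libraries of the contrast alone, at 0.35 and 0.31, and without either 150 nM library, and PSMD7 also with the split of the libraries as a term, at 0.40. PSMB6, the caspase-like catalytic subunit, had 14.3 and 13.6 CPM in DMSO, 14.2 and 19.6 with 150 nM and 18.1 and 18.4 with 500 nM (chr17:4795702-4796810, 0.39, SE 0.19, adjusted p = 0.43). PSMD6 had low values of 7.82 and 5.42 CPM in DMSO, 7.86 and 6.22 with 150 nM and 7.72 and 10.2 with 500 nM (chr3:64022870-64023521, 0.45, SE 0.27, adjusted p = 0.55). Its groups overlap, and the value was 0.71 without DMSO replicate 1.

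The 3 main H3K27ac peaks below 0 were PSMC4, PSMA8 and PSMB9. PSMC4, a 19S ATPase, had 90.6 and 86.2 CPM in DMSO, 88.8 and 86.7 with 150 nM and 83.5 and 81.4 with 500 nM in a 4698 bp peak (chr19:39966228-39970925, -0.10, SE 0.10, adjusted p = 0.77). This peak ends before the first transcribed base of PSMC4 in RefSeq, at 39971165. The smaller PSMC4 peak beside it was at 0.26 and not called either. PSMA8 had 26.9 and 24.1 CPM in DMSO and 22.4 and 25.4 at 500 nM (chr18:26133309-26134838, -0.09, adjusted p = 0.89). PSMB9 had 75.9 and 77.6 CPM in DMSO, 68.0 and 81.8 with 150 nM and 76.3 and 75.1 with 500 nM (chr6:32852070-32855429, -0.02, interval -0.24 to 0.20).

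Among the catalytic subunits, PSMB5 read 32.2 and 36.9 CPM in DMSO, 45.3 and 40.9 with 150 nM and 39.9 and 47.1 with 500 nM (chr14:23033971-23036152, 0.33, SE 0.14, adjusted p = 0.32). Both doses lay above both DMSO libraries there. Its immunoproteasome counterpart PSMB8 had 74.7 and 73.2 CPM in DMSO, 78.8 and 91.4 with 150 nM and 78.6 and 76.5 with 500 nM (chr6:32843284-32846218, 0.07, adjusted p = 0.87). PSMB10 had 57.2 and 53.5 CPM in DMSO, 55.0 and 60.1 with 150 nM and 60.3 and 72.6 with 500 nM (chr16:67934958-67937493, 0.26, SE 0.12, adjusted p = 0.38). Without 500 nM replicate 2 that value was 0.12. By class, the median H3K27ac change at 500 nM was 0.31 over the 7 constitutive beta genes, with all 7 above 0 (6 with offsets fitted on abundance), and 0.02 over the 4 immunoproteasome and tissue-specific genes, with 2 above 0. It was 0.18 for the 20S alpha genes, 0.15 for the ATPases, 0.18 for the non-ATPases and 0.30 for the chaperones. The difference between classes was not tested.

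All 36 main H3K4me3 peaks overlap the main H3K27ac peak of the same gene. With the main scaling the H3K27ac value was above 0 and the H3K4me3 value below 0 at 28 genes, at 5 both were above 0, at PSMC4 both were below 0, and at PSMA8 and PSMB9 H3K4me3 was above and H3K27ac below 0. The H3K4me3 signs follow the scaling, as given above. The main H3K27ac peak of PSMC4 ends before the gene start, and the smaller PSMC4 peak beside it was above 0. Across genes the changes of the marks were related with a Spearman rho of -0.20, a description over 36 genes of the same libraries. The genes called lower in H3K4me3 had H3K27ac values of 0.32 at PSMB7, 0.10 at PSMD4, 0.45 at PSMD6 and 0.18 at PSMD14, none of them called.

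**Figure D5:**
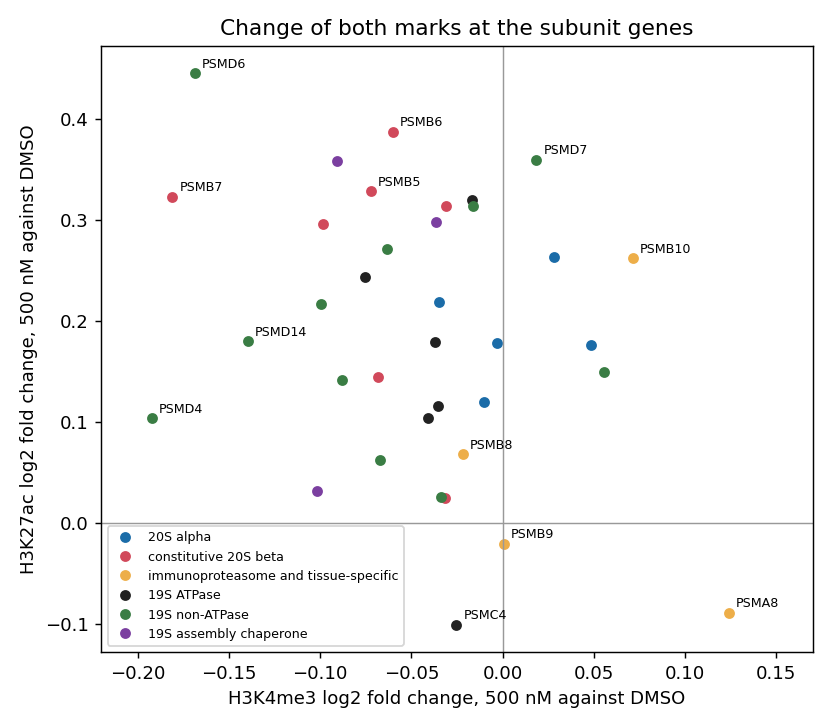
Log2 fold change at 500 nM against DMSO of the main H3K4me3 peak (horizontal axis) and the main H3K27ac peak (vertical axis) of 36 proteasome subunit genes, coloured by class with 12 genes named. The upper left quadrant holds 28 genes and the lower left only PSMC4, with the H3K4me3 side depending on the scaling.

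PSMA1 and PSMA6, alpha subunits with no peak near a gene end, have a RefSeq start inside their annotated span with a peak over it. The PSMA1 peak had 102 and 101 CPM of H3K4me3 in DMSO and 96.7 and 97.2 at 500 nM (chr11:14518842-14521247, -0.06, adjusted p = 0.27). The PSMA6 peak had 114 and 106 in DMSO and 105 and 106 at 500 nM (chr14:35291111-35295308, -0.07, adjusted p = 0.19), and was lower than at 150 nM by the test (-0.11, adjusted p = 0.04). Their H3K27ac values were 0.11 and 0.13, not called. PSMB11, the thymus-specific catalytic subunit, had a promoter entry and no peak over it in either mark.

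For the 8 genes with an antioxidant response element core in the 250 bases, the median H3K4me3 change of the main peaks at 500 nM was -0.02, and it was -0.04 in the 23 other genes with a promoter entry and a main peak. In H3K27ac the medians were 0.28 with the core, 7 of 8 above 0, and 0.18 without it, 21 of 23 above 0. For the ETS site the order was reversed, at 0.13 with the site and 0.22 without it. For the NF-Y box the medians were 0.20 with it and 0.15 without. For the nuclear respiratory factor 1 site, held by 3 of these genes, both were 0.18. With the antioxidant response element core, PSMC5 stood at 0.32, PSMB3 and PSMD12 at 0.31, PSMD5 at 0.30 and PSMD3 at 0.27. PSMA4 stood at 0.18, PSMD9 at 0.03 and PSMB9, the only 1 of the 8 below 0, at -0.02. The groups were not tested against each other, and binding of a factor was not measured.

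A list of 37 other genes of the pathway had 34 genes with a tested peak in each mark. Their main H3K4me3 peaks were called higher at 1 gene and lower at 12 with 500 nM against DMSO, with a median of -0.05. These 13 of 34 stood beside the 39.4% called over all peaks. The split was 2 higher and 8 lower with total counts in peaks, and 4 higher and 6 lower with offsets fitted on abundance. Under these scalings 37.0% and 33.9% of all peaks were called. PSMG2, a chaperone of 20S assembly, rose, with 68.5 and 69.1 CPM in DMSO, 74.0 and 71.8 with 150 nM and 90.5 and 99.4 with 500 nM (log2 fold change 0.46, SE 0.05, adjusted p = 6.5e-12). UBQLN2, which carries ubiquitinated proteins to the proteasome, fell from 80.7 and 76.2 CPM in DMSO to 65.8 and 68.7 (-0.23, adjusted p = 0.00018). PSME1, a subunit of the 11S activator, had 2 H3K4me3 peaks. The one with the higher mean level fell from 98.8 and 103 to 85.4 and 86.8 (chr14:24139575-24142298, -0.23, adjusted p = 3.2e-05). It also lay near an end of EMC9 and did not overlap the PSME1 peak of H3K27ac (chr14:24135576-24137373). Whether it belongs to PSME1 or to EMC9 was not tested, and the other PSME1 peak is not described here. The changes at PSMG2, UBQLN2 and PSME1 were larger in size than any at a main peak of a subunit gene. The far-end member peaks of PSMA5 and PSMD9 stood at 0.33, -0.41 and -2.47. The ubiquitin genes had no call, and of the 7 genes of the route that activates NFE2L1, only SYVN1, an endoplasmic reticulum ubiquitin ligase, passed, at -0.11. NFE2L1 itself had 132 and 136 CPM in DMSO, 129 and 126 with 150 nM and 139.7 and 135 with 500 nM (0.04, adjusted p = 0.39). In H3K27ac none of the 34 was called, with a median of 0.13 and 27 above 0 (24 with total counts in peaks), and NFE2L1 stood at 0.23 (SE 0.12, adjusted p = 0.47).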

How the data were processed

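The 12 libraries of H3K4me3 and H3K27ac were grouped by their titles. The authors deposited read counts per consensus peak, not normalized, 1 table per mark. Per the file headers they counted with featureCounts 2.0.1, ignoring strand, with reads allowed to enter more than 1 peak if 0.2 or more of the read overlapped it. An option for paired reads stands in the headers while the labels' protocols name single reads, so whether counts are of reads or fragments is not settled. Per the submitters' processing notes the build was GRCh38 and the tools were Trim Galore 0.6.7, BWA 0.7.17-r1188, Picard 2.27.4, MACS2 2.2.7.1, deepTools 3.5.1 and edgeR 3.42.4. How the consensus peaks were made is not given in the sources used here. Deposited starts were raised by 1.

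All 6 libraries of a mark entered 1 fit with edgeR 4.0.16 in R 4.3.3 (filterByExpr by group, trimmed mean of M-values, glmQLFit, glmQLFTest), with Benjamini-Hochberg adjustment over all tested peaks at 0.05. CPM values are relative to the counts in tested peaks, so a change shared by all peaks is not measured. Standard errors were derived from the F statistic. Alternatives were other scalings, filters, libraries and distances, a replicate block, and DESeq2 1.42.0. Offsets on abundance were fitted with limma 3.58.1. Figures used matplotlib 3.10.9.

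The members, gene lists and motifs were chosen with earlier results of these data known. Named were, for H3K4me3, the main peaks with the highest and lowest change at 500 nM in each class, for H3K27ac the 3 highest and 3 lowest main peaks, and in both marks PSMB5, PSMB8, PSMB9 and PSMB10. For the other pathway genes they were the 2 largest called rises and falls and NFE2L1. PSMD6 and PSMD14 in H3K4me3, PSMC5 in H3K27ac, PSMB2, SYVN1 and the far-end peaks were named after their values were seen. The H3K27ac values of the 8 genes with an antioxidant response element core were given as a set, outside these rules. On simulated data with 100 changed peaks of each size, drawn from peaks above the median abundance, the H3K4me3 test at 500 nM against DMSO recovered 95% of log2 changes of 0.3 and 100% of changes of 1 among 20402 peaks, with 12 false among 207 calls. The H3K27ac test recovered 0% and 80% among 54037 peaks, with 1 false among 81 calls. Replicate numbers were not treated as pairs.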

Additional observations from a re-analysis of the deposited data

How the results depend on the processing

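At 500 nM against DMSO the H3K4me3 count of 7 member peaks became 2 with peaks over a RefSeq promoter window, a setting chosen after seeing the data. PSMB7 and PSMD4 have no promoter entry, so their called peaks could not count there or in the comparison with 150 nM. The count became 2 with DESeq2, the far-end peak of PSMA5 and the 376 bp peak of PSMD9. It was 4 with peaks that cover a gene end (0 bp) or with 1 main peak a gene, and 11 within 5000 bp. Leaving out each library in turn gave 5 to 9. At 500 nM against 150 nM the count of 10 became 3 with DESeq2, 6 at an adjusted p under 0.01 and 6 over RefSeq promoter windows, and leaving out each library gave 5 to 10. In H3K27ac at 500 nM against DMSO the count of 0 became 2, both higher, with the 4 libraries of the contrast alone and 1 with the split of the libraries on 5 contigs as a term, and leaving out each library gave 0 to 2. The other 3 counts were 0 under every alternative run. In H3K4me3, DESeq2 called 17.1% of all peaks at 500 nM against DMSO and 17.0% at 500 nM against 150 nM. With a replicate block the counts were 7, 0 and 10 in H3K4me3 and 0, 0 and 0 in H3K27ac, the same numbers as without it. Same-numbered libraries of different groups had correlations of 0.0026 to 0.13, so the numbers are not shown to pair the samples. Of 441 alternative values of the 29 peaks followed, 407 kept their side of the threshold or, where never called, moved by at most 1 SE. Of the rest, 10 lost a call, 12 gained a call, 12 moved by more than their SE and 0 changed sign while called. The cause of these differences was not tested. The median peak held 21 to 24 counts in the H3K27ac libraries and 263 to 328 in the H3K4me3 libraries, and libraries of a group differed by a chi-square per degree of freedom of 1.25 to 2.39 in H3K27ac, above counting noise.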
